A study of Caenorhabditis elegans with 8 samples.

Results

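Innexins are the proteins that form gap junctions in invertebrates, the channels through which neighbouring cells pass ions and small molecules. Each hemichannel is an assembly of innexin subunits, and cell types differ in which subunits they use. In the adult gonad of Caenorhabditis elegans, INX-14, INX-21 and INX-22 act in germ cells and pair with INX-8 and INX-9 in the somatic sheath cells that surround them. Channels with INX-21 are known for germ cell proliferation, and channels with INX-22 for holding back oocyte meiotic maturation. INX-3 is a widely expressed epithelial innexin that is needed for embryonic morphogenesis, INX-12 and INX-13 are known from the epidermis and the excretory canal cell, and UNC-7 and UNC-9 form electrical synapses that act in locomotion.

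Transcripts of 10 innexin genes were followed here, 5 of the germline and sheath (inx-8, inx-9, inx-14, inx-21 and inx-22) and 5 of epithelia and neurons (inx-3, inx-12, inx-13, unc-7 and unc-9). They were chosen by name from the 25 innexin genes, and all 10 matched one of the 46748 gene identifiers counted. The choice was made with the differences between the 2 strains in these libraries already known. Those differences are therefore given for the 10 genes as a description, with no p-value and no test of the 10. The fits over all genes include them. Which of the 10 those fits called is given only at the end, to show how calls depend on the processing. The SE beside a log2 fold change comes from the edgeR fit to all genes tested.

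The libraries came from whole worms at the late embryo stage, 4 biological replicates of each of 2 strains. The strain called WT carries lin-52(bn139), in which LIN-52 bears GFP and 3xFLAG and is otherwise unaltered. The strain called 3A carries lin-52(bn151), with the same tags and the substitutions L42A, C44A and E46A, made to break the association of the pocket protein LIN-35 with the MuvB subcomplex of DREAM, a repressor complex. Both strains thus hold the tagged gene, and no untagged strain was analysed here. Embryos were released by bleaching adults after 72 hours of liquid culture and were held for up to 3.5 hours (20 °C). No label says what a shared replicate number stands for. Throughout, values after ± are standard deviations (SD) over the 4 libraries of a strain, n = 4.

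The shallowest library held 14667743 read pairs assigned to genes and the deepest 68040557. Ribosomal RNA genes took between 0.720% and 40.7% of the counts, with 3A replicates 1 and 4 above 10%. WT replicate 1 stood apart in the summed level of the muscle markers, at 3837 CPM (counts relative to the size of the library, scaled by TMM, the trimmed mean of M-values) against 745 to 1125 in the other WT libraries. Its intestinal marker sum was 1461 CPM against 298 to 442. Among the 3A libraries, replicate 1 was also the highest in both sums. It held 1857 CPM for muscle against 681 to 1091, and 638 CPM for intestine against 272 to 469. The mutated gene, lin-52, had a mean CPM of 6.78 ± 3.81 (WT) and 6.86 ± 2.66 (3A), and the substitutions cannot be seen in gene counts. Across the 12664 genes tested, the median log2 fold change of 3A over WT was -0.08.

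In WT embryos the epithelial innexins made up nearly all of the RNA of the 10 genes. Per length of transcript, inx-12, inx-3 and inx-13 had the highest means of the whole family of 25. Their levels were 25.1 ± 14.2, 24.7 ± 17.7 and 21.1 ± 8.03 TPM, a scale that divides counts by exon length and sets each library to the same total. Their order was not fixed: inx-12 exceeded inx-3 in 2 of the 4 WT libraries, and inx-3 exceeded inx-13 in 2 of 4. All 3 were far above the rest of the 10, and inx-13 exceeded inx-22 in 8 of 8 libraries. Outside the 10, inx-2 came next in WT at 19.5 ± 12.2 TPM, which differed from inx-13 by less than the spread. In 3A the mean of inx-2, 18.1 ± 4.66 TPM, was above that of inx-13, 15.5 ± 2.33 TPM.

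The other 7 genes were weakly expressed in WT. The level of inx-22 was 0.564 ± 0.373 TPM, that of unc-9 0.419 ± 0.361 and that of unc-7 0.344 ± 0.228. inx-21 was at 0.283 ± 0.262 TPM and inx-14 at 0.243 ± 0.200. Neighbours among these 5 levels differed by less than their spread. The sheath innexins inx-9 and inx-8 came last in the family, at 0.0488 ± 0.0333 and 0.0283 ± 0.0211 TPM. The epithelial and neuronal class held between 98.0% and 99.2% of the summed TPM of the 10 genes in the WT libraries and between 89.9% and 93.9% in the 3A libraries.

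**Figure D1:**
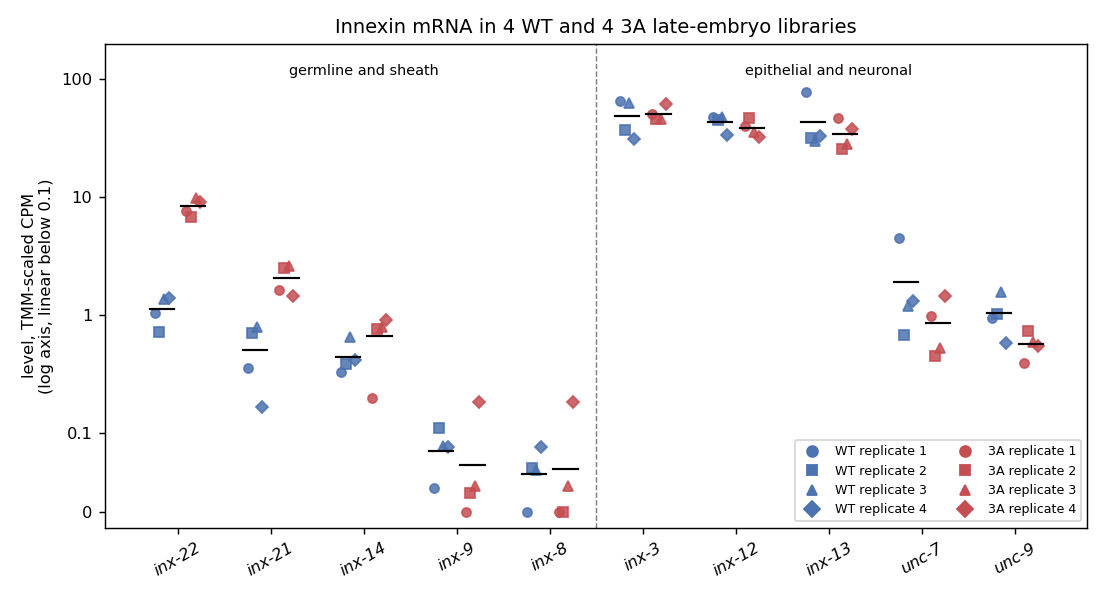
Level of each of the 10 innexins in TMM-scaled CPM (log axis, linear below 0.1), with WT libraries in blue, 3A libraries in red, a symbol for each replicate number and a line at the mean. The 4 3A libraries lie above the 4 WT libraries for inx-22 and inx-21, and overlap them for the other 8 genes.

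Of the germline innexins, inx-22 (WBGene00002144) and inx-21 (WBGene00002143) separated the strains in CPM, with all 3A libraries above all WT libraries. In TPM only inx-22 did so. inx-22, a germ cell subunit of the channels that restrain oocyte maturation, drew 35, 52, 181 and 17 counts from the WT libraries in order of replicate number. The 3A libraries gave 117, 286, 298 and 100. The libraries of 3A thus held more inx-22 counts in total, 801 against 285, although they were sequenced less deeply.

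After scaling, the inx-22 level was 1.05, 0.718, 1.38 and 1.41 CPM over the WT libraries, listed here and below by replicate number, and 7.73, 6.84, 9.90 and 9.16 CPM over the 3A libraries. The lowest 3A library was well above the highest WT library. Mean CPM was 1.14 ± 0.326 for WT and 8.41 ± 1.38 for 3A, a 7.46-fold difference with a log2 fold change of 2.90 (SE 0.31). By this value inx-22 stood at place 21 of the 12664 genes when ordered from the most raised. Per length it moved from place 14 in WT to place 7 in 3A among the 25 innexins by mean TPM, with 3.53 ± 0.90 TPM in 3A. Bulk RNA cannot tell more cells with the transcript from more transcript per cell.

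inx-21, a germ cell subunit of the proliferation-promoting channels, measured 0.360, 0.704, 0.803 and 0.166 CPM over the WT libraries. Over the 3A libraries it measured 1.65, 2.51, 2.63 and 1.47 CPM. In TPM, which is not scaled by TMM, the groups overlapped, with WT replicate 3 at 0.624 and 3A replicates 1 and 4 at 0.510 and 0.471. The TMM factors ran from 0.630 in 3A replicate 4 to 1.92 in WT replicate 3. In CPM the groups did not overlap, with a mean of 0.508 ± 0.297 for WT and 2.06 ± 0.590 for 3A. This is a 3.77-fold difference, 1.91 on the log2 scale (SE 0.45). Counts were few in WT, from 2 to 105 a library, so the WT level was set less precisely than the level in 3A, which rested on 16 to 105 counts. The gene passed the count filter with 2 WT libraries and all 4 3A libraries at or above its limit of 0.347 CPM (before TMM scaling), whereas inx-22 was above it in all 8.

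The third germ cell subunit, inx-14 (WBGene00002136), partner of both INX-21 and INX-22, did not separate the strains. Its level was 0.330, 0.387, 0.658 and 0.415 CPM over the WT libraries and 0.198, 0.765, 0.798 and 0.916 CPM over the 3A libraries. In CPM the lowest of the 8 values was in 3A replicate 1, from 3 counts, and the other 3A libraries were above all WT libraries. In TPM the highest of the 8 values was in WT replicate 3, at 0.537. Its log2 fold change was 0.55 (SE 0.48), on 5 to 86 counts a library in WT and 3 to 32 in 3A. Its 3′ end overlaps that of kbrl-1 on the opposite strand by up to 78 exon bases, and the libraries are strand-specific.

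The sheath innexins could hardly be detected. inx-8 (WBGene00002130) drew 0, 4, 7 and 1 counts from the WT libraries and 0, 0, 1 and 2 from the 3A libraries. inx-9 (WBGene00002131) drew 1, 8, 11 and 1 counts from WT and 0, 1, 1 and 2 from 3A. A count of 3, taken as the smallest detectable signal, corresponded to 0.0229 to 0.275 CPM. Only WT replicates 2 and 3 exceeded it for either gene, and those were the deepest libraries. Neither gene passed the count filter, and no fold change is given. The 5 sheath markers summed to between 51.98 and 127 CPM in WT and between 54.7 and 77.1 CPM in 3A. Most of that sum was nmy-1, a non-muscle myosin gene used in many tissues, with a mean CPM of 63.1 ± 36.1 (WT) and 57.4 ± 11.8 (3A). lim-7 followed with 9.51 ± 1.48 (WT) and 8.18 ± 1.40 (3A), then ceh-18 with 1.57 ± 0.312 and 0.979 ± 0.295, and acy-4 with 0.580 ± 0.196 and 0.467 ± 0.387. The gonadal factor fkh-6 was near 0, with 0 to 3 counts a library. The class is named for where its genes act in adults.

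Of the 8 listed innexins that passed the filter, 2 had groups that did not overlap in CPM, both higher in 3A. Of all genes tested, 3.80% did not overlap in that direction and 6.16% in either. Since the 10 genes were chosen with these values known, nothing is read from that count. With library size as the only scaling the log2 fold change of inx-22 was 2.49 (SE 0.59).

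The epithelial innexins were abundant, and the levels of all 3 overlapped between the strains. inx-3 (WBGene00002125), the broadly expressed epithelial subunit, measured 65.3, 37.4, 63.5 and 31.1 CPM over the WT libraries and 50.8, 45.8, 46.6 and 62.3 CPM over the 3A libraries. All 3A values lay inside the WT range. The difference on the log2 scale was 0.06 (SE 0.29), and it was -0.37 (SE 0.45) with library size as the only scaling. With 374 to 8306 counts a library in WT, counting error was small beside the spread between replicates.

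inx-12 (WBGene00002134), an excretory and epidermal innexin, measured 47.7, 45.8, 47.6 and 33.6 CPM over the WT libraries. Over the 3A libraries it measured 40.0, 47.0, 36.0 and 32.6 CPM. WT replicate 4 was the low library of its group, close to the 2 lowest of 3A. On the log2 scale 3A differed from WT by -0.17 (SE 0.24).

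inx-13 (WBGene00002135), which neighbours inx-12 and is known from the same tissues, measured 78.0, 31.8, 30.1 and 33.5 CPM over the WT libraries. Over the 3A libraries it measured 46.9, 25.8, 28.3 and 37.9 CPM. WT replicate 1 was far above the other 7 libraries. Its log2 fold change was -0.32 (SE 0.35) and became 0.14 (SE 0.24) without that library, so its sign rested on 1 sample. In WT replicate 1 the epidermal markers summed to 2508 CPM, against 551 to 1476 in the other WT libraries. They summed to 2344 CPM in 3A replicate 1 and to between 933 and 1553 in the other 3A libraries. The part of these differences in inx-13 was not tested.

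The neuronal innexins were both weakly expressed and had negative log2 fold changes. unc-7 (WBGene00006747), a subunit of electrical synapses, measured 4.49, 0.677, 1.21 and 1.33 CPM over the WT libraries and 0.991, 0.454, 0.532 and 1.47 CPM over the 3A libraries. Except in WT replicate 1, the values of the strains covered much the same range. The log2 fold change was -1.24 (SE 0.62), and -0.38 without WT replicate 1. The neuron markers summed to 291 CPM in that library and to between 152 and 173 in the other WT libraries, and their part in the unc-7 value was not tested.

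unc-9 (WBGene00006749), which also acts in body muscle, measured 0.959, 1.04, 1.59 and 0.581 CPM over the WT libraries. Over the 3A libraries it measured 0.396, 0.741, 0.598 and 0.550 CPM. WT replicate 4 lay among the 3A values and the other WT libraries lay above them. The log2 fold change was -0.88 (SE 0.41), on 7 to 208 counts a library in WT and 6 to 31 in 3A. The gene reached the filter limit in 4 WT and 2 3A libraries. Of the 9 tested neuron markers, 7 had a negative log2 fold change, with a median of -0.36, beside 7248 of all 12664 genes tested. The lowest of the 9 was rab-3, a synaptic vesicle GTPase gene, at -1.28 (SE 0.45, edgeR adjusted p = 0.412). The other 2 of the 9 were positive, the highest at 0.08.

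The comparison of the classes within each library followed from these values. The mean log2 CPM of the 5 germline and sheath genes, with a prior count of 2, lay below that of the 5 epithelial and neuronal genes in every library. The difference was -6.16, -4.67, -4.80 and -4.72 over the WT libraries and -4.52, -3.77, -3.39 and -3.32 over the 3A libraries. The widest gap of 3A, -4.52, was narrower than the narrowest of WT, -4.67. Since the 10 genes were chosen with these values known, nothing is read from this separation. The mean difference was -5.09 ± 0.72 in WT and -3.75 ± 0.55 in 3A, a change of 1.34. Leaving out inx-8 and inx-9, which are near 0, the change was 2.17. The summed CPM of the epithelial and neuronal class ranged from 100 to 196 in WT and from 112 to 139 in 3A. That of the germline and sheath class ranged from 1.77 to 2.98 in WT and from 9.58 to 13.4 in 3A. inx-22 supplied between 36.4% and 65.4% of the germline and sheath counts in WT libraries and between 67.5% and 80.7% in 3A libraries.

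Several innexins lie next to each other in the genome. Positions are from the Ensembl 115 annotation of WBcel235, the build named in the submitters' processing notes. inx-22 spans positions 3608518 to 3611844 of chromosome I and inx-21 positions 3611942 to 3618317, both on the plus strand with 97 bases between them. The pair with both members raised thus has the second-smallest gap of the 4 neighbouring innexin pairs with no protein-coding gene between them on the same strand. inx-16 and inx-17, which were not among the 10, are 49 bases apart on the plus strand of chromosome I. inx-8 (11673843 to 11675635) and inx-9 (11676354 to 11678497) lie on the plus strand of chromosome IV, 718 bases apart. inx-13 (3748523 to 3753958) and inx-12 (3755488 to 3759039) lie on the minus strand of chromosome I, 1529 bases apart. inx-14 (7350309 to 7352235, minus strand), also on chromosome I, has no innexin as its direct neighbour. inx-3 (5996156 to 5998243, plus strand), unc-7 (15120846 to 15147740, minus strand) and unc-9 (13201770 to 13216729, plus strand) are on the X chromosome.

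Although the genes of the inx-22 and inx-21 pair were both higher in 3A, their proportion varied between libraries. inx-22 made up 74.5%, 50.5%, 63.3% and 89.5% of the pair's counts over the WT libraries. Over the 3A libraries it made up 82.4%, 73.1%, 79.0% and 86.2%. The 3A shares lay within the WT range. The 95% Wilson intervals, which cover counting error only, ran from 68.6% to 97.1% in WT replicate 4, with 19 counts for the pair, and from 40.99% to 59.9% in WT replicate 2. Per length of exon, inx-22 exceeded inx-21 by 1.06 to 8.86 times in WT and by 2.84 to 6.51 times in 3A. inx-12 supplied between 37.9% and 61.3% of the counts of its pair with inx-13 in WT and between 46.0% and 64.5% in 3A.

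**Figure D2:**
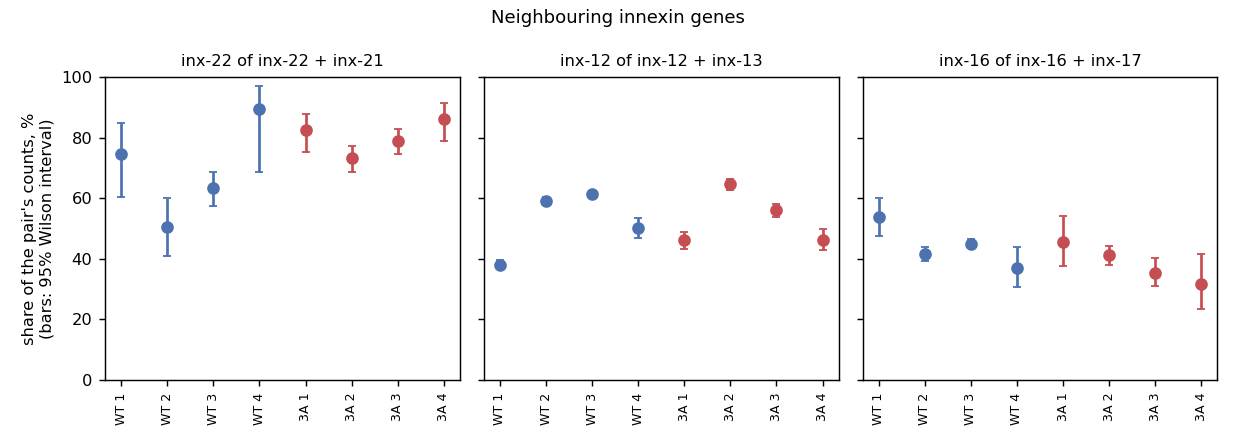
Share of the first gene in the summed counts of 3 pairs of neighbouring innexins, in percent, for each WT (blue) and 3A (red) library, with 95% Wilson intervals. The inx-22 share runs from 50.5% to 89.5% in WT and from 73.1% to 86.2% in 3A. The inx-16 share of its pair with inx-17 runs from 36.9% to 53.7% in WT and from 31.6% to 45.7% in 3A. The strains overlap in all 3 pairs.

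The 15 innexins outside the list complete the family and were all tested. None was called in 3A against WT by edgeR, which called 0.371% of all genes tested, 0.355% as higher and 0.0158% as lower in 3A (quasi-likelihood test, Benjamini-Hochberg adjusted p below 0.05). None was called by DESeq2, and 0 of the 15 reached an unadjusted p below 0.05, as 9.75% of all genes tested did. Of the 15, 13 had a negative and 2 a positive log2 fold change, with a median of -0.37 and a range from -0.72 to 0.16. Of all 12664 genes tested, 7248 were negative, with a median over all of -0.08. The most abundant of them in WT were inx-2 (19.5 ± 12.2 TPM) and inx-15, an intestinal innexin (14.8 ± 11.4 TPM). By edgeR their log2 fold changes were 0.16 (SE 0.25, adjusted p = 0.865) and 0.05 (SE 0.33, adjusted p = 0.98), and both were negative with library size as the only scaling, at -0.25 and -0.39.

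The lowest of the 15 was che-7, also known as inx-4, with a mean CPM of 0.952 ± 0.13 (WT) and 0.582 ± 0.149 (3A). All 3A values lay below all WT values, as for 2.36% of all genes tested, with 3A at -0.72 on the log2 scale (SE 0.37, edgeR adjusted p = 0.578). inx-16, an intestinal innexin of the defecation rhythm, had -0.71 (SE 0.42; adjusted p = 0.615). The pharyngeal innexins inx-6 and eat-5 had -0.38 (SE 0.33; adjusted p = 0.745) and -0.63 (SE 0.54; adjusted p = 0.743). inx-19, known for the asymmetry of the AWC olfactory neurons, was among the steadiest, with a mean CPM of 7.26 ± 0.895 (WT) and 6.23 ± 0.248 (3A) (log2 fold change -0.22, SE 0.23, edgeR adjusted p = 0.799). The rest were inx-1, inx-5, inx-7, inx-10, inx-11, inx-17, inx-18 and inx-20, with log2 fold changes between -0.61 and 0.00. These p-values do not show that the 15 genes were at equal levels in the strains.

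**Figure D3:**
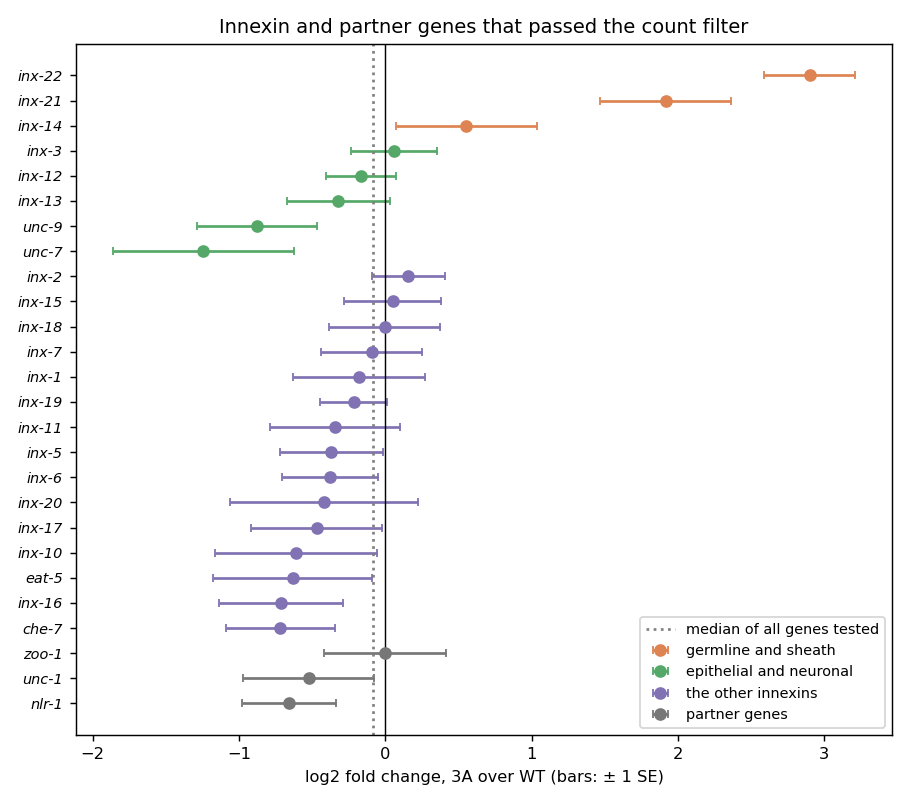
Log2 fold change of 3A over WT, with bars of 1 SE, for the 8 listed innexins that passed the count filter, the other 15 innexins and 3 partner genes. The dotted line is the median of all genes tested, at -0.08. inx-22 and inx-21 lie at 2.90 and 1.91, and the other 15 innexins lie between -0.72 and 0.16.

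Of the 3 partner genes of gap junctions, none was called by edgeR or by DESeq2, and 0 of 3 reached an unadjusted p below 0.05, beside 0.371% and 9.75% of all genes tested. unc-1, a stomatin-like regulator of UNC-9 channels, averaged 39.1 ± 26.1 CPM (WT) and 27.3 ± 13.4 CPM (3A) (log2 fold change -0.52, SE 0.45, edgeR adjusted p = 0.742). nlr-1, a neurexin-like membrane protein gene, had a log2 fold change of -0.66 (SE 0.32; adjusted p = 0.548). zoo-1, the worm homologue of ZO-1, had 0.00 (SE 0.42; adjusted p = 0.999), with WT replicate 1 at 62.7 CPM and the other WT libraries between 18.2 and 19.6. Without that library it was 0.67 (SE 0.25; adjusted p = 0.144).

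Markers of the cells that express these innexins in adults were set beside inx-22. The 10 oocyte markers all had positive log2 fold changes, with a median of 0.64, and so did the 8 germline markers, with a median of 0.57. The 6 yolk genes vit-1 to vit-6, expressed in the adult intestine, were all positive too, with a median of 0.84. None of these 24 genes was called by edgeR or DESeq2, and 1 oocyte and 1 germline marker reached an unadjusted p below 0.05, beside 0.371% of all genes tested that edgeR called and 9.75% at that unadjusted threshold. The median of all genes tested was -0.08, with 42.8% positive.

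The summed oocyte markers came to 24.9, 9.16, 13.3 and 16.7 CPM over the WT libraries and 20.5, 13.96, 30.3 and 34.5 CPM over the 3A libraries, so the groups overlapped. WT replicate 1, which stood apart in its muscle and intestinal markers, had more of them than 3A replicates 1 and 2. The germline markers summed to 84.8, 27.9, 31.1 and 40.9 CPM in WT and to 92.8, 52.1, 70.7 and 90.3 CPM in 3A, again with WT replicate 1 inside the 3A range. The other 3 WT libraries, at 27.9 to 40.9 CPM, all lay below the 3A libraries in this sum. In TPM the germline sum did not overlap, at 8.61 to 18.2 in WT and 20.0 to 21.6 in 3A. The oocyte and yolk sums overlapped in TPM as well. The yolk genes ranged from 2.73 to 76.6 CPM in WT and from 1.45 to 102 CPM in 3A. Within WT the highest yolk sum was in replicate 4, and within 3A the lowest was in replicate 1. The sperm markers were low, with 5 of 8 below the count filter and the sperm membrane gene spe-38 at 0 counts in 7 of 8 libraries. The part of oocyte, germline and yolk RNA in the inx-22 value was not tested.

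**Figure D4:**
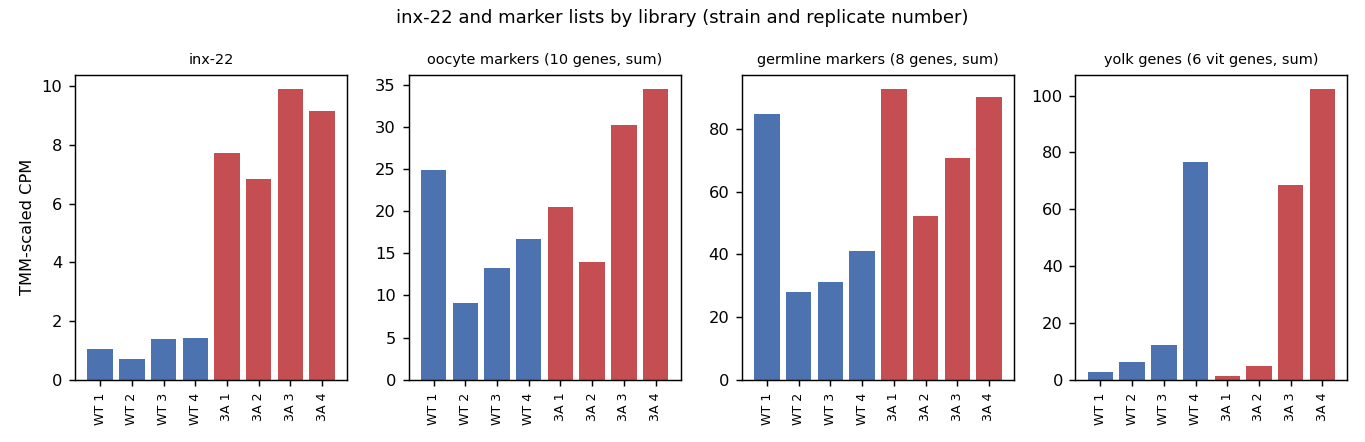
Level of inx-22 and summed levels of 10 oocyte markers, 8 germline markers and 6 yolk genes in each library, in TMM-scaled CPM, with WT in blue and 3A in red. inx-22 separates the strains, from 0.718 to 1.41 CPM in WT and from 6.84 to 9.90 CPM in 3A. The marker sums overlap between the strains in CPM, but in TPM the germline sum does not.

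The other marker lists held no called gene either. Over all 11 lists 79 of 87 matched genes were tested, 0 were called by edgeR, 0 by DESeq2, and 8 reached an unadjusted p below 0.05, a share close to the 9.75% of all genes tested. The somatic gonad precursor markers had a median log2 fold change of 0.05, and the mean CPM of hnd-1 was 18.8 ± 3.90 (WT) and 21.2 ± 2.99 (3A). The medians were -0.19 for the sheath, -0.09 for sperm, -0.15 for epidermis, -0.33 for muscle, -0.44 for the excretory system and -0.05 for intestine. All 8 excretory markers had negative values, beside 7248 of all 12664 genes tested. The lowest was lin-48, a factor of the excretory duct cell (log2 fold change -1.07, SE 0.46; edgeR adjusted p = 0.487). All its 3A values lay below all WT values, as for 1 of the 79 tested markers and 2.36% of all genes tested.

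For each of the 10 innexins, the gene outside the family with the most similar profile was taken by the highest Pearson correlation of log2 CPM over the 8 libraries, out of 10503 genes averaging 1 CPM or more. It was sdz-14 for inx-22 (r = 0.989), with 25.3 CPM in WT and 51.9 CPM in 3A on average. It was acr-17, an acetylcholine receptor subunit gene, for inx-21 (r = 0.953), with 0.798 CPM in WT and 2.97 CPM in 3A. For inx-14 it was eri-6, a helicase gene of small RNA pathways (r = 0.966).

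For the epithelial genes the most similar profiles were those of gldi-2 for inx-3 (r = 0.983), nstp-4 for inx-12 (r = 0.972) and vha-3, a proton pump subunit gene, for inx-13 (r = 0.993). For the neuronal genes they were those of elf-1 for unc-7 (r = 0.983) and hlh-14, a proneural factor gene, for unc-9 (r = 0.970). The values for inx-8 (phat-8, r = 0.886) and inx-9 (dhs-2, r = 0.923) rest on a handful of counts. Each is the highest of many correlations over 8 libraries that differ in depth. inx-13 had 507 genes with a correlation above 0.9 and inx-22 had 128.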

How the data were processed

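RNA of whole late embryos was sequenced as strand-specific, poly(A)-selected libraries with 150-bp paired-end reads, per the labels' protocols. The authors deposited raw counts per gene identifier for each library, and the submitters' processing notes name fastp, STAR, HTSeq, DESeq2 and the build WBcel235, with no versions. The annotation release is not given in the sources used here. Closing counters that name no gene were left out. They held 0.40% to 0.93% of read pairs (ambiguous) and 1.82% to 14.4% (aligned to several places).

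Genes were kept by filterByExpr (minimum count 10) and tested with edgeR 4.0.16 in R 4.3.3 (TMM scaling, quasi-likelihood F-test, no block, Benjamini-Hochberg adjustment, threshold 0.05). The SE is the log2 fold change divided by the square root of F. TPM used the union of exons. Depth and the floor of 3 counts per library limit the weakly expressed genes, and intervals cover counting error only. Replicate counts differed beyond sampling noise in all 12 within-strain pairs (chi-square over degrees of freedom at least 63.9), and each library was treated as its own sample. Nothing in the labels beyond the words biological replicate says how separate they were, so p-values measure the spread between these libraries. DESeq2 1.42.0, other scalings, filters, a replicate block and fits without libraries were alternatives.

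The innexins and gene lists were chosen with earlier results of these data known. Genes named are the 25 innexins, 3 partner genes, the listed markers given beside a result (1 listed sheath marker, tag-256, had no matching symbol), lin-52 and the gene most like each of the 10 innexins. Sequences were not used here.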

Additional observations from a re-analysis of the deposited data

Results flagged for a closer look

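A sample far from the others of its group was found in 5 of 52 groups of 4 libraries examined over the tested innexin and partner genes (gap to the nearest library, as a share of the group's range, above Dixon's 95% critical value). Chance alone flags about 1 in 20 groups. WT replicate 1 accounts for 4 of the 5. It was high for inx-13 at 78.0 CPM, with the next WT library at 33.5. It was high for unc-7 at 4.49 CPM, with the next at 1.33, and for zoo-1 at 62.7 CPM, with the next at 19.6. It was low for eat-5 at 0.240 CPM, with the next at 0.841. WT replicate 4 was low for inx-12 at 33.6 CPM, with the next at 45.8. No library of the 3A strain and no value of inx-22, inx-21 or inx-14 was marked in this way.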

How the results depend on the processing

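The number of genes called in 3A against WT was 47 and moved widely: 175 with the replicate block, 10 with library size only, 165 with DESeq2, 71 with no filter, 87 without the same-numbered pair 1, 15 without the pair 4, and 18 to 196 in the fits without 1 replicate (196 without WT replicate 1; 18, 25, 30 and 18 without WT replicate 2, WT replicate 3, 3A replicate 1 and 3A replicate 3). It was 17 without both 3A libraries over 10% ribosomal RNA, an alternative chosen after seeing the data. The fits over all genes include the listed innexins, chosen with these values known, and called 1 of them (inx-22). This count is no test of them. It was 2 with the replicate block and with DESeq2 (inx-21 added), and 0 with library size only, which shifted the median of all genes to -0.40. Across the 18 alternatives the log2 fold change of inx-22 ranged from 2.49 to 3.04 and that of inx-21 from 1.51 to 2.22. The narrowing of the class gap kept its direction in every alternative run. The gap is taken within each library, so scaling, filter, test and block could hardly move it, and their agreement is no support. Leaving out 1 replicate, which could move it, gave 0.98 to 1.60. It was 2.17 with inx-8 and inx-9 left out, also chosen after seeing the data. The summed mean TPM of the 10 genes, taken in WT only, was 72.8. It was 72.5 with the length of the longest transcript and 73.1 with ribosomal RNA genes left out of the total. The 0 called among the 15 other innexins and the 3 partner genes did not move. Same-numbered libraries had correlated deviations of 0.57, 0.60, 0.18 and 0.0085, and 3 of 8 libraries correlated best with their own number, and no label says what a number marks, so the numbers were not taken as pairs. With the block, 1 germline marker of the 79 tested markers was called. Signs of uncalled genes turned. With library size only, inx-15 was -0.39 and inx-2 -0.25. With the replicate block, inx-18 was 0.078 and zoo-1 0.19. Without the pair 1, inx-1, inx-15, inx-18, inx-7 and zoo-1 were 0.17, -0.12, 0.20, 0.078 and 0.53. Without the pair 4, inx-2 was -0.060. Without both 3A libraries over 10% ribosomal RNA, inx-11, inx-20 and inx-7 were 0.051, 0.063 and 0.14. Without 1 replicate the ranges were -0.51 to 0.15 for inx-1, -0.19 to 0.22 for inx-15, -0.23 to 0.43 for inx-18, -0.56 to 0.051 for inx-5, -0.44 to 0.082 for inx-7, -0.92 to 0.065 for unc-1 and -0.17 to 0.67 for zoo-1. The cause of these changes was not tested.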
